A study of Mus musculus with 32 samples.

Results

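Sostdc1, Fst, Sfrp1, Dkk3 and Wif1 encode secreted proteins that bind or oppose ligands of the Wnt, bone morphogenetic protein (BMP) and activin families. They were taken by name from the count files of 32 CEL-seq2 libraries of mouse epidermal organoids, hair follicles and epidermis, and are 5 of the 19970 gene names in the files. The libraries come from Bl/6 skin. Late organoids (6 libraries, passages 23 to 30, within 6 months of culture) grew with forskolin and Fgf1. Early organoids (passages 7 to 12, within 3 months) grew with forskolin and a TGF-beta inhibitor (4 libraries), the inhibitor without forskolin (2), forskolin and Fgf1 (2), or forskolin and Fgf10 (4). Unpassaged organoids had 1 library for each of those 4 media and 1 for forskolin alone. Organoids were harvested on day 7. The tissues were interfollicular epidermis sorted for Itga6 and Sca1 (3 libraries), follicles in anagen, the growth phase of the hair cycle (3), and a mixture of anagen follicles and follicles in telogen, the resting phase (3). Forskolin activates adenylyl cyclase, and Fgf1 and Fgf10 are fibroblast growth factors. The labels name no other component of the media, and no medium holds both an FGF and the inhibitor.

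Wnt ligands bind Frizzled receptors together with Lrp5 or Lrp6, and BMPs and activins bind serine/threonine kinase receptors that signal through Smad proteins. Secreted antagonists act outside the cell, most of them by holding the ligand or by occupying its receptor. In skin, Wnt signalling drives follicle formation and the entry into anagen, and BMP signalling keeps follicle stem cells at rest. Sostdc1 (also Wise or ectodin) binds BMPs and also Lrp5 and Lrp6. Fst, follistatin, binds activin tightly and some BMPs. Sfrp1 and Wif1 bind Wnt ligands, Sfrp1 through a domain like that of the Frizzled receptors. Dkk3 belongs to the Dickkopf family, but unlike Dkk1 it is not a clear inhibitor of Lrp5 and Lrp6.

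On GRCm38, Sostdc1 lies on chromosome 12 at 36314139 to 36318452 (plus strand), Fst on chromosome 13 at 114452290 to 114458951 (minus strand) and Sfrp1 on chromosome 8 at 23411502 to 23449632 (plus strand). Dkk3 lies on chromosome 7 at 112116017 to 112159057 (minus strand) and Wif1 on chromosome 10 at 121033960 to 121100650 (plus strand). These are whole protein-coding genes. Fst overlaps an antisense gene, and whether counting used the strand is not given, so its counts could include that partner.

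Levels are CPM, the count of a gene scaled to the library's total without spike-ins. CEL-seq2 reads 1 end of each transcript, so CPM were not divided by length. Library totals ran from 412582 to 3351435 counts (median 1505354), and 10511 to 15648 genes were detected per library. Epidermis libraries had 469839 to 739531 counts, so 3 counts there correspond to 1.71 CPM over the group. The files list differing genes, and files with exactly the same names form 11 sets, taken here as the batches. Every tissue comparison crosses such sets, so set and group cannot be told apart there. The same holds for late against early organoids, and for early against unpassaged organoids in the inhibitor media. Summed inner root sheath markers ran from 1212 to 1377 CPM in epidermis, 41723 to 61317 CPM in anagen follicles and 10261 to 21974 CPM in mixed follicles, and 8 of the 9 were at 0 in every epidermis library. Summed basal epidermal markers ran from 21773 to 25140 CPM in epidermis, 372 to 2394 CPM in anagen follicles and 7112 to 13038 CPM in mixed follicles. In these bulk libraries fewer cells of a type and less RNA per cell cannot be told apart.

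**Figure D1:**
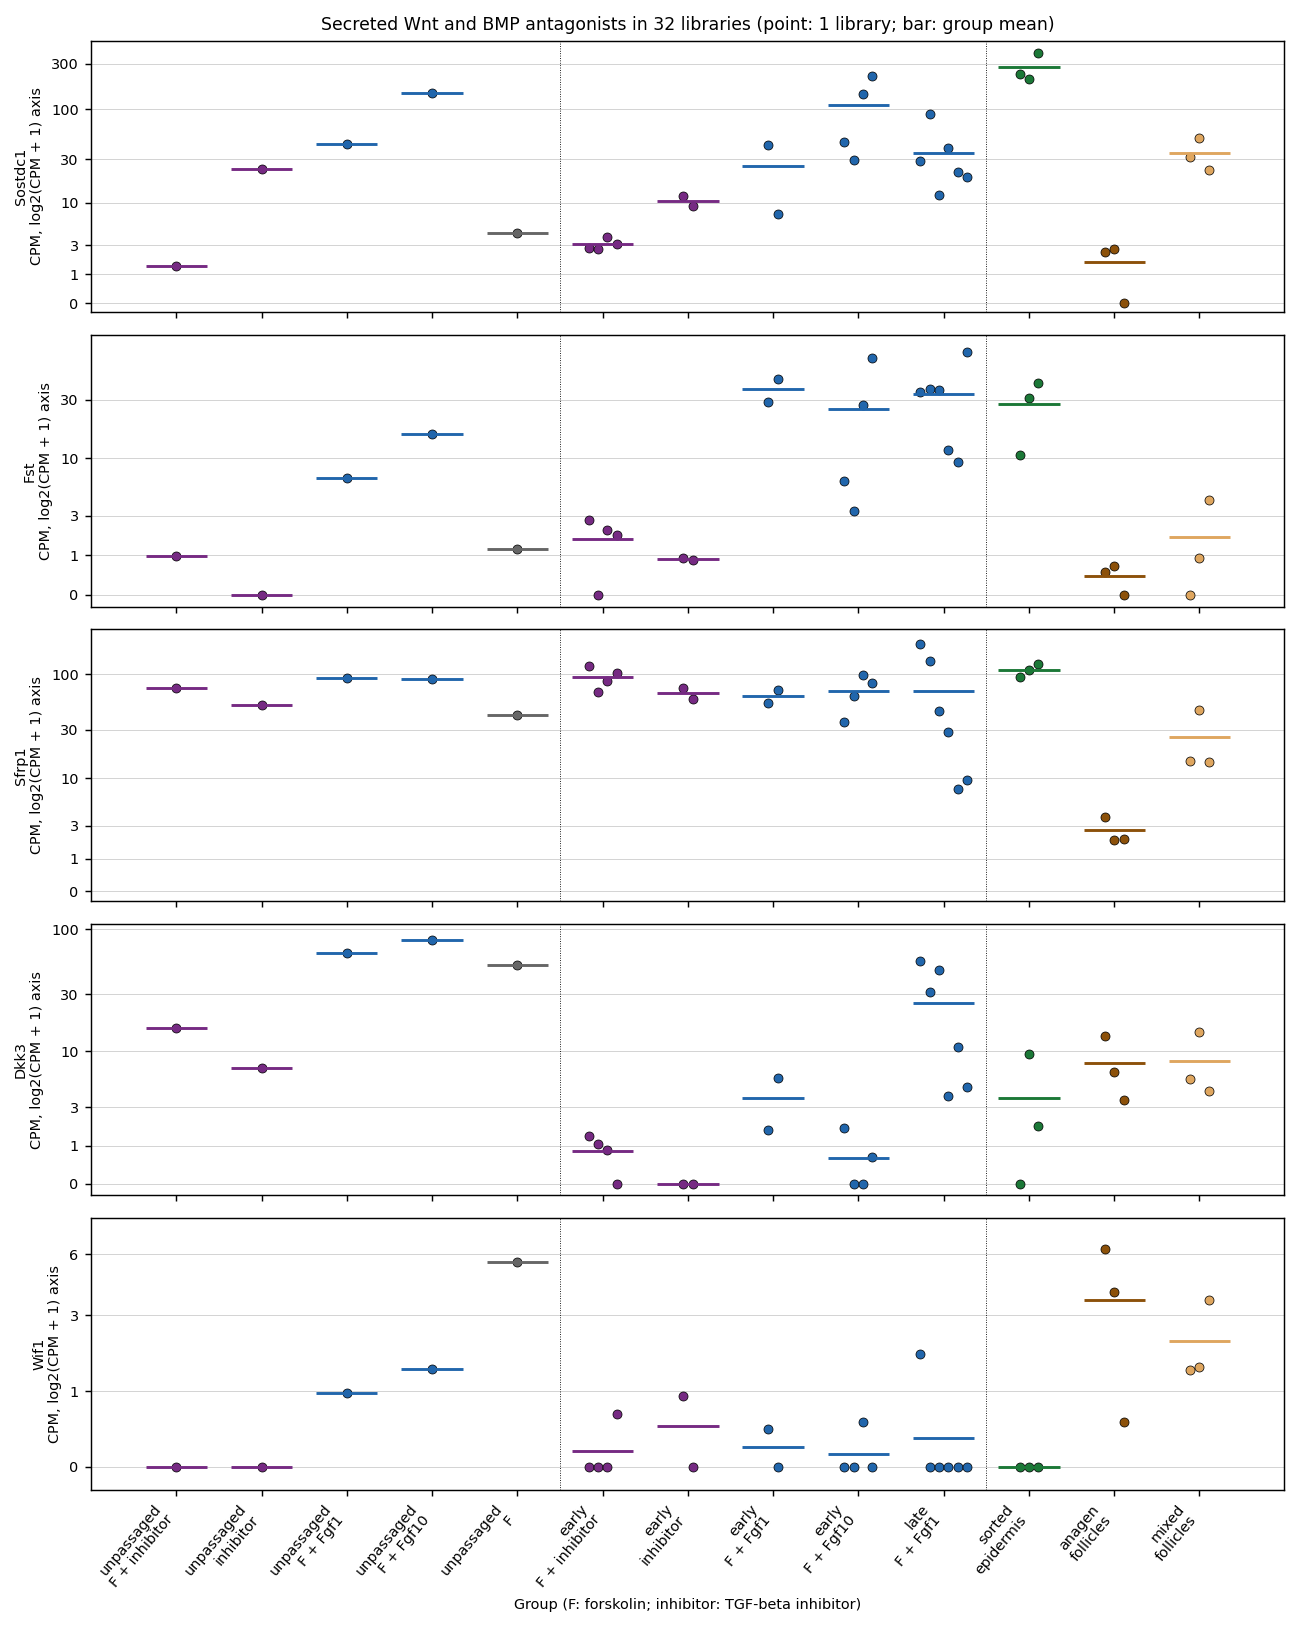
Levels of the 5 antagonists in each of the 32 libraries, as CPM on a log2(CPM + 1) axis, by group; points are libraries and bars are group means. The mean of Sostdc1 was highest in epidermis, Dkk3 was highest in the unpassaged libraries with an FGF, and Wif1 had no count in any epidermis library.

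Sorted epidermis against the follicles asks where in skin the antagonists are expressed. Sostdc1 was higher in epidermis than in either group of follicles. It had 236, 206 and 383 CPM in epidermis, against 2.43, 2.63 and 0 CPM in anagen follicles and 31.5, 50.4 and 23.1 CPM in mixed follicles. Every epidermis library lay above every follicle library, and every mixed library above every anagen library. On the fitted log2 scale it was higher in epidermis by 6.91 ± 0.85 (SE) than in anagen follicles (adjusted p = 1.6e-05, edgeR's quasi-likelihood test) and by 1.92 ± 0.63 than in mixed follicles (adjusted p = 0.028). Anagen follicles hold 9 Sostdc1 counts in all, so the ratio of summed CPM, 165, carries an exact 95% counting interval of 86.2 to 363.

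Fst had 10.6, 31.1 and 40.7 CPM in epidermis, against 0.486, 0.658 and 0 CPM in anagen follicles and 0, 0.895 and 4.33 CPM in mixed follicles. On unscaled CPM no follicle library reached an epidermis library. With CPM scaled by TMM, mixed replicate 3 had 10.4 CPM and lay above epidermis replicate 1 at 7.97 CPM, so these groups overlapped. The fitted log2 difference was 5.53 ± 1.14 against anagen follicles (adjusted p = 0.00124) and 2.97 ± 0.96 against mixed follicles (adjusted p = 0.0263). Against mixed follicles it ran from 2.25 to 4.67 on leaving out 1 library, the highest without mixed replicate 3. With 2 Fst counts in the anagen libraries together, the ratio of summed CPM was 78.97 with a counting interval of 20.8 to 670.

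Sfrp1 had 93.6, 110 and 124 CPM in epidermis, against 3.89, 1.97 and 2.05 CPM in anagen follicles and 15.04, 46.5 and 14.4 CPM in mixed follicles. All 3 groups were separate. Its fitted difference against anagen follicles was 4.83 ± 0.96 (adjusted p = 0.000921), while that against mixed follicles, 1.08 ± 0.77, did not pass (adjusted p = 0.311). Fitted with the compared groups alone, the difference from mixed follicles passed (1.05, adjusted p = 0.0112, edgeR), so this result depends on the groups in the fit.

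Dkk3 and Wif1 did not share that pattern. Dkk3 had 0, 9.47 and 1.85 CPM in epidermis, against 13.6, 6.58 and 3.59 CPM in anagen follicles and 5.73, 14.6 and 4.33 CPM in mixed follicles, and the groups overlapped. Its log2 differences of -1.27 ± 1.01 and -1.95 ± 1.00 did not pass (adjusted p = 0.357 and 0.151). Wif1 had no count in the 3 epidermis libraries, against 6.32, 3.95 and 0.513 CPM in anagen follicles (20 counts) and 1.43, 1.49 and 3.61 CPM in mixed follicles (12 counts). With a floor of 3 counts in place of 0 over the epidermis libraries together, Wif1 in anagen follicles lay 2.11-fold above that floor. The exact 95% counting interval of the ratio of anagen follicles to epidermis starts at 1.56-fold. Anagen replicate 1 held 13 of the 20 counts, and without it the fold over the floor was 1.18 and the counting interval started at 0.727-fold. In mixed follicles the fold over the floor was 1.14 and the counting interval started at 0.793-fold, so it included no difference. Wif1 did not pass the filter on low counts in any fit and has no test.

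Of the 5 members, 4 were tested and 3 rose in epidermis against anagen follicles, where 34.2% of the 10843 tested genes were called in either direction and 14.8% rose. Against mixed follicles 2 of 4 rose, beside 30.3% of genes called and 11.9% that rose. In anagen against mixed follicles Sostdc1 (log2 difference -5.00 ± 0.82, adjusted p = 0.000669) and Sfrp1 (-3.75 ± 0.94, adjusted p = 0.0184) fell, 2 of 4 members beside 6.63% of genes called and 5.42% that fell, while Fst (-2.56 ± 1.41, adjusted p = 0.324) and Dkk3 (-0.68 ± 0.83, adjusted p = 0.697) did not pass. These comparisons share libraries and are not independent. How often the libraries of 2 groups do not overlap over all genes was not counted, here or below. The median log2 difference of all genes in epidermis was -0.147 against anagen follicles and -0.083 against mixed follicles, and 0.088 and 0.195 with upper quartile scaling. Of the called genes 43.4% and 39.1% were higher in epidermis, and 54.1% and 52.6% with that scaling, under which the calls of the 4 tested members were the same. Both calls against mixed follicles were lost on leaving out single libraries: that of Sostdc1 without mixed replicate 1, 2 or 3 or epidermis replicate 3 (adjusted p = 0.0941, 0.0664, 0.0679 and 0.1), that of Fst without mixed replicate 1 or 2 or epidermis replicate 2 or 3 (adjusted p = 0.102, 0.149, 0.0682 and 0.084). The call of Sfrp1 between the follicle groups was lost without anagen replicate 1 or 2 or mixed replicate 2 (adjusted p = 0.069, 0.0977 and 0.102). Fibroblast markers summed to 35.4 to 530 CPM in anagen and 903 to 1959 CPM in mixed follicles. Outer root sheath markers summed to 476 to 2175 and 7872 to 15840 CPM, and Langerhans and T cell markers to 3.29 to 13.1 and 65.9 to 167 CPM, in that order. Inner root sheath markers went the other way, as given above. The part of these marker lists in the differences of Sostdc1 and Sfrp1 between the follicle groups was not tested.

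The called targets of BMP and Wnt signalling were lower in epidermis than in anagen follicles, while ligands and Wnt receptors went both ways. Among 11 BMP targets, 9 were tested and 7 were lower in epidermis, with a median log2 difference of -3.91 beside -0.147 for all genes. Smad6, an inhibitory Smad induced by BMP, had no count in epidermis, against 47.2 ± 15.2 CPM in anagen follicles (SD, n = 3). Bambi, a decoy receptor, averaged 0.709 ± 1.23 CPM in epidermis and 229 ± 23 CPM in anagen follicles (SD, n = 3 each). The homeobox gene Msx1 was at 0 in epidermis and at 17.3 ± 13.6 CPM in anagen follicles. Among 13 Wnt targets, 11 were tested and 5 were lower in epidermis, with a median of -1.93. Nkd1, a feedback inhibitor of Wnt signalling, was at 0 in epidermis, against 52.7 ± 14.2 CPM in anagen follicles. Lef1, a transcription factor of the Wnt pathway, averaged 0.617 ± 1.07 CPM in epidermis and 114 ± 55.2 CPM in anagen follicles. Lgr5, an R-spondin receptor and follicle stem cell gene, averaged 0.617 ± 1.07 CPM in epidermis and 35.6 ± 33.1 CPM in anagen follicles.

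Other secreted antagonists went both ways. Of 14 BMP and activin antagonists 5 were tested: Nbl1, a BMP antagonist of the DAN family, rose in epidermis by 4.28 ± 0.81 (adjusted p = 0.000636), and Fstl1, a follistatin-like glycoprotein, and Tsku, a leucine-rich repeat protein that binds BMPs, fell (-5.66 ± 1.499, adjusted p = 0.00769, and -4.16 ± 1.56, adjusted p = 0.0498). Of 14 other Wnt antagonists 4 were tested and did not pass the adjusted threshold in edgeR. Of 9 tested BMP and activin ligands 2 rose and 2 fell in epidermis, of 9 Wnt ligands 2 rose and 3 fell, of 17 Wnt receptors 2 rose and 5 fell, and of 6 BMP and activin receptors 1 fell. Among the ligands, Bmp8a was at 0 in epidermis and at 48.5 ± 19.0 CPM in anagen follicles, while Inhbb, a subunit of activin and a ligand that Fst binds, averaged 22.3 ± 4.602 CPM in epidermis and 0.324 ± 0.561 CPM in anagen follicles. The part that cell makeup plays in these differences was not tested.

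Late organoids were then set against the tissues. Sostdc1 ran from 12.2 to 89.7 CPM in late organoids (median 25.2, n = 6), below the 206 CPM of the lowest epidermis library, and above the highest anagen follicle library at 2.63 CPM. It was lower in late organoids than in epidermis by a log2 difference of -2.86 ± 0.52 (adjusted p = 0.000934) and higher than in anagen follicles by 4.05 ± 0.77 (adjusted p = 0.000433). Fst ran from 9.28 to 70.5 CPM in late organoids (median 34.8), and overlapped epidermis (10.6 to 40.7 CPM). Its difference of 0.49 ± 0.67 from epidermis did not pass (adjusted p = 0.649), and that from anagen follicles, 6.01 ± 1.06, did (adjusted p = 0.000216). Sfrp1 ran from 7.74 to 192 CPM in late organoids (median 36.9), on both sides of epidermis, and differed by -0.58 ± 0.65 from epidermis (adjusted p = 0.569) and by 4.24 ± 0.90 from anagen follicles (adjusted p = 0.00101). Dkk3 ran from 3.90 to 55.7 CPM in late organoids (median 21.2), against 0 to 9.47 CPM in epidermis. It rose by 2.67 ± 0.92 against epidermis (adjusted p = 0.045) and its difference of 1.41 ± 0.74 from anagen follicles did not pass (adjusted p = 0.13). Wif1 had 1 count in the 6 late libraries together and was not listed in 3 of their files.

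Of 4 tested members, 1 rose and 1 fell in late organoids against epidermis, beside 21.8% of genes called (12.2% rose, 9.53% fell), and 3 rose against anagen follicles, beside 45.8% called and 21.2% that rose. The Dkk3 call against epidermis was lost without epidermis replicate 1 or 3 or late replicate 1, 2 or 3 (adjusted p = 0.157, 0.15, 0.0696, 0.0546 and 0.0858), and without late replicates 1 and 2 together Sfrp1 was lower than in epidermis by -1.97 (adjusted p = 0.00341). Of 9 tested BMP and activin ligands 2 fell in late organoids, Bmp4 and Bmp3 (-3.11 ± 0.95, adjusted p = 0.0283), and of 9 tested Wnt ligands 1 fell, Wnt3, and 2 rose, Wnt5a (3.70 ± 0.65, adjusted p = 0.000644) and Wnt9a (6.61 ± 1.67, adjusted p = 0.0102). Bmp4 averaged 2.58 ± 3.64 CPM in late organoids and 72.1 ± 20.9 CPM in epidermis, and Wnt3 averaged 0.217 ± 0.531 CPM in late organoids and 114 ± 18.1 CPM in epidermis (SD, n = 6 and 3). Tsku, the only other BMP antagonist of 5 tested to be called, averaged 9.49 ± 4.77 CPM in late organoids and was at 0 in epidermis. Fibroblast markers summed to 205 to 1122 CPM in late organoids and 78.8 to 144 CPM in epidermis, with 2 and 4 of 10 at 0 in every library. Langerhans and T cell markers summed to 12.4 to 194 CPM in late organoids and 376 to 719 CPM in epidermis, with 3 and 0 of 8 at 0, and bulge markers to 330 to 4461 CPM in late organoids and 10256 to 10697 CPM in epidermis, with 2 and 0 of 9 at 0. The bulge list summed to only 650 to 936 CPM in anagen follicles and 747 to 1589 CPM in mixed follicles. Its sum was therefore not read as a measure of bulge cells, and how many bulge cells the libraries hold was not tested. The part of these marker lists in the differences of Dkk3 and Sostdc1 was not tested.

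Early organoids of all 4 media were also compared with epidermis, each medium weighted equally. Sostdc1 fell by a log2 difference of -3.66 ± 0.44 (adjusted p = 2.44e-06) and Fst by -1.90 ± 0.71 (adjusted p = 0.0315), 2 of 3 tested members beside 50.4% of the 9997 genes called and 25.5% that fell. Sfrp1 differed by -0.30 ± 0.24 (adjusted p = 0.313), and Dkk3 and Wif1 did not pass the filter. The Fst call was lost without epidermis replicate 2 or 3 or either library of the inhibitor without forskolin (adjusted p = 0.112, 0.154, 0.0563 and 0.0659). Among BMP and activin receptors, 5 of 10 were tested and 4 fell and 1 rose. Among Wnt receptors 9 of the 15 tested of 21 fell and 0 rose, and among other antagonists Igfbp4, Tpbg, Nbl1 and Htra1 fell and Tsku rose. Langerhans and T cell markers summed to 2.72 to 26.3 CPM in early organoids and 376 to 719 CPM in epidermis, and bulge markers to 213 to 714 CPM in early organoids and 10256 to 10697 CPM in epidermis. The bulge sum in follicles also lay below that in epidermis (650 to 936 CPM in anagen and 747 to 1589 CPM in mixed follicles). The part of these marker lists in the lower Sostdc1 and Fst was not tested.

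**Figure D2:**
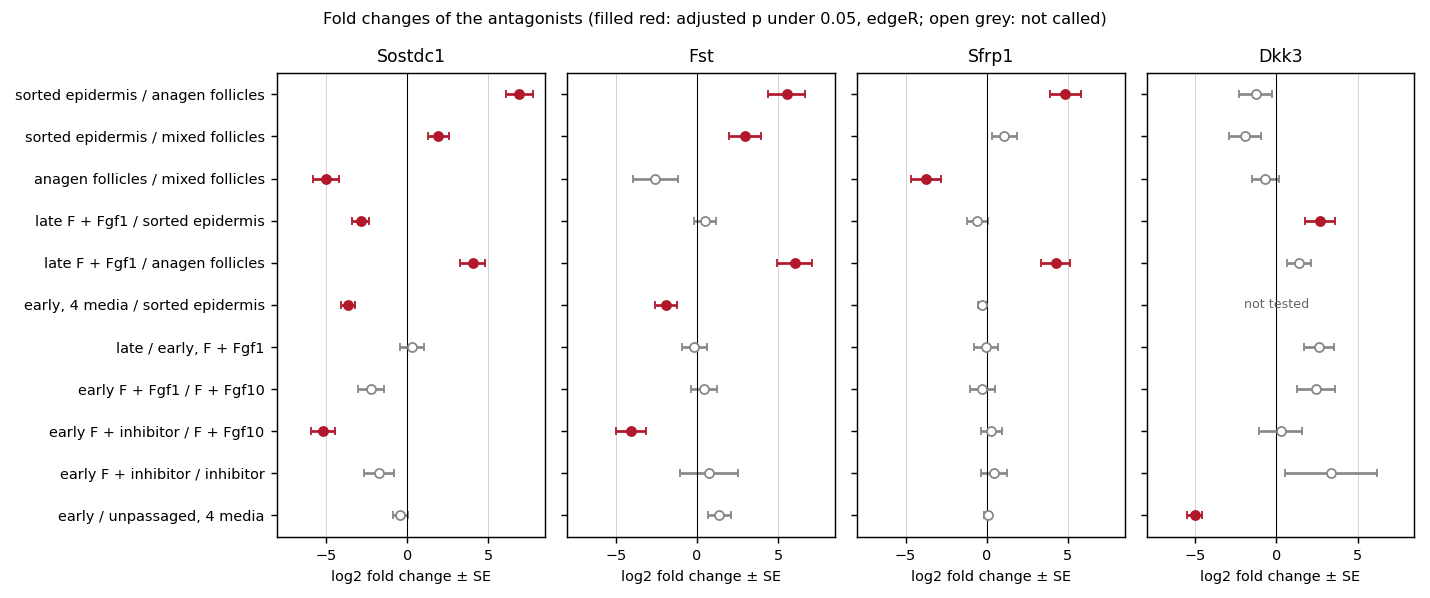
Log2 fold changes of 4 antagonists with their SE in 11 comparisons, with the group before the slash over the group after it; filled red points passed an adjusted p of 0.05 in edgeR and open grey points did not. Sostdc1 and Fst were higher in epidermis than in anagen follicles and lower with forskolin and the inhibitor than with forskolin and Fgf10, and Dkk3 was lower in early than in unpassaged organoids.

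Among early organoids, Sostdc1 and Fst were lower with forskolin and the inhibitor than with forskolin and Fgf10. Sostdc1 had 2.72, 2.68, 3.85 and 3.08 CPM with forskolin and the inhibitor, 11.8 and 9.12 CPM with the inhibitor without forskolin, 42.7 and 7.42 CPM with forskolin and Fgf1, and 45.2, 29.5, 146 and 225 CPM with forskolin and Fgf10. Both inhibitor media lay below all 4 Fgf10 libraries, and the lower Fgf1 library, at 7.42 CPM, lay below both libraries with the inhibitor without forskolin. Fst had 2.72, 0, 2.14 and 1.85 CPM with forskolin and the inhibitor, 0.908 and 0.829 CPM with the inhibitor without forskolin, 28.7 and 43.3 CPM with forskolin and Fgf1, and 6.45, 3.36, 27.1 and 63.9 CPM with forskolin and Fgf10. No inhibitor library reached an FGF library in Fst.

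With forskolin and the inhibitor against forskolin and Fgf10, Sostdc1 fell by a log2 difference of -5.19 ± 0.76 (adjusted p = 0.00319), or 36.5-fold, and Fst by -4.06 ± 0.91 (adjusted p = 0.0481). That is 2 of 4 tested members, beside 0.575% of the 9919 genes called and 0.313% that fell (57 called, and 17 to 33 without Fgf10 replicate 1 or 2 or inhibitor replicate 1, 2 or 3). Among libraries with an identical gene list the differences were -5.45 for Sostdc1 (adjusted p = 0.000861) and -4.39 for Fst (adjusted p = 0.0273). The Sostdc1 call held on leaving out each library in turn. That of Fst was lost without Fgf10 replicate 3 or 4 or any 1 of the 4 inhibitor libraries (adjusted p = 0.0951 to 0.184). Since the inhibitor media also lack an FGF, the inhibitor and the missing FGF cannot be told apart. The unpassaged library with forskolin alone, which has neither, had 7 Sostdc1 counts (4.28 CPM) and 2 Fst counts (1.22 CPM).

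Sfrp1 had 119, 68.2, 86.4 and 103 CPM with forskolin and the inhibitor, 73.5 and 58.9 CPM with the inhibitor without forskolin, 53.8 and 70.3 CPM with forskolin and Fgf1, and 35.8, 62.4, 98.3 and 82.9 CPM with forskolin and Fgf10. With forskolin and the inhibitor against forskolin and Fgf10 its difference was 0.29 ± 0.62 (adjusted p = 1). Dkk3 had 0 to 5.85 CPM over the 12 early libraries, with 28 counts in all and 5 libraries at 0. Both Fgf1 libraries, at 1.64 and 5.85 CPM, lay above every inhibitor library (at most 1.36 CPM), and 1 of them lay below the highest Fgf10 library (1.76 CPM). Fgf1 against Fgf10 gave a Dkk3 difference of 2.46 ± 1.16 (unadjusted p = 0.0492, adjusted p = 1, edgeR). Of the 5 members' summed CPM, Sfrp1 made up 92.7% to 94.9% in the libraries of forskolin plus inhibitor, against 22.2% to 65.5% in those of forskolin plus Fgf10.

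Fgf1 against Fgf10, both with forskolin, gave no member called. Sostdc1 was lower with Fgf1 by -2.23 ± 0.80 (unadjusted p = 0.0124, adjusted p = 1, edgeR), with 1 of 2 Fgf1 libraries inside the range of the Fgf10 libraries. edgeR called 0 of 9919 genes in this comparison (0%), with 331 at an unadjusted p under 0.05 and 15 by DESeq2. Forskolin and the inhibitor against the inhibitor without forskolin also gave 0 genes in edgeR, with 621 at an unadjusted p under 0.05 and 24 by DESeq2. In that comparison all 4 Sostdc1 libraries with forskolin lay below the 2 without it, by a log2 difference of -1.74 ± 0.93 (adjusted p = 0.838). The summed counts, 21 and 24, give a ratio of 0.308 with a counting interval of 0.163 to 0.577.

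Fibroblast markers were also lower in both inhibitor media than in both FGF media. Between the FGF media they were higher with Fgf1, as was the mean of Fst, while the mean of Sostdc1 was higher with Fgf10. The 10 markers summed to 7.27 to 16.3 CPM with forskolin and the inhibitor, 9.08 to 10.8 CPM with the inhibitor without forskolin, 278 to 541 CPM with forskolin and Fgf1, and 26.2 to 189 CPM with forskolin and Fgf10, and 2, 5, 5 and 2 of the 10 were at 0 in all libraries of those groups, in that order. Their part in the Sostdc1 and Fst differences was not tested. Among the pathway genes, the BMP targets Id2 and Id3, inhibitors of helix-loop-helix factors, rose with forskolin and the inhibitor, 2 of 7 tested. Id2 averaged 72.7 ± 28.4 CPM with forskolin and the inhibitor and 8.10 ± 2.88 CPM with forskolin and Fgf10, and Id3 averaged 215 ± 105 CPM with forskolin and the inhibitor and 39.9 ± 14.7 CPM with forskolin and Fgf10 (SD, n = 4 each). Bmp1, a protease rather than a BMP ligand that cleaves procollagen and chordin, fell (log2 difference -2.12 ± 0.44, adjusted p = 0.0305). Of the other Wnt antagonists and of the other BMP and activin antagonists, 4 and 5 were tested and did not pass.

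Dkk3 was the member that was lower in early than in unpassaged organoids. In early organoids it had 1.36, 1.07, 0.856 and 0 CPM with forskolin and the inhibitor, 0 and 0 CPM with the inhibitor without forskolin, 1.64 and 5.85 CPM with forskolin and Fgf1, and 1.76, 0, 0 and 0.614 CPM with forskolin and Fgf10. In unpassaged organoids Dkk3 had 15.9 CPM with forskolin and the inhibitor, 7.19 CPM with the inhibitor without forskolin, 64.2 CPM with forskolin and Fgf1, 81.4 CPM with forskolin and Fgf10 and 51.4 CPM with forskolin alone. In each of the 4 media that have both stages, every early library lay below the unpassaged one. With medium as a term, Dkk3 fell in early against unpassaged organoids by a log2 difference of -5.05 ± 0.45, or 33.0-fold (adjusted p = 7.36e-06), the 1 member called of 4 tested, beside 11.8% of 8890 genes called and 6.13% that fell. All genes called numbered 1051, and 184 without the unpassaged library with forskolin and Fgf10 or 396 without that with the inhibitor without forskolin. For Dkk3 the difference was -5.29 (adjusted p = 0.00014) among the libraries that share the gene list of the unpassaged ones, and the call held without each library in turn, at -5.71 (without the unpassaged library with forskolin and Fgf1) to -4.18 (without that with forskolin and Fgf10). It was -5.27 ± 0.94 in the 2 inhibitor media and -5.43 ± 0.52 in the 2 FGF media, beside 0.664% and 3.26% of genes called there (0.304% and 2.09% fell). In the inhibitor media the early and unpassaged libraries are of different sets, so passage and set cannot be told apart there. The -5.29 among libraries with a shared gene list comes from the FGF media alone. The difference between the inhibitor and the FGF media, 0.16, did not pass (adjusted p = 0.965), beside 0.0225% of genes called. Its direction changed on leaving out single libraries, so it does not show that the falls are equal. The call within the inhibitor media was lost without either unpassaged library or either early library with the inhibitor without forskolin (adjusted p = 0.0985 to 0.271), and that within the FGF media without the unpassaged library with forskolin and Fgf10 (-4.05, adjusted p = 0.0791). With the inhibitor without forskolin, the early libraries had no Dkk3 count. With the floor of 3 counts in place of 0, the summed level was 5.53-fold lower than that of the unpassaged library (16 counts). The counting interval of the ratio starts at 4.00-fold.

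The other members were not called on passaging. Sostdc1 in unpassaged organoids had 1.44, 23.4, 43.7 and 148 CPM in the same order of media, and differed by -0.42 ± 0.48 in early against unpassaged organoids (adjusted p = 0.59). The unpassaged library with the inhibitor without forskolin lay 16.2-fold above that with forskolin and the inhibitor (52 and 3 counts, counting interval 5.24 to 80.9). Fst had 0.963, 0, 6.80 and 15.99 CPM in unpassaged organoids and differed by 1.38 ± 0.71 (adjusted p = 0.209). Sfrp1 had 74.2, 51.7, 92.3 and 89.4 CPM and differed by 0.06 ± 0.24 (adjusted p = 0.897), with a turn to -0.99 (adjusted p = 0.0729) among libraries that share a gene list, which are the FGF media. Wif1 had 9 counts with forskolin alone (5.51 CPM) and 3 counts in the other 4 unpassaged libraries together. With 1 unpassaged library per medium the spread comes from the differences between media and the early libraries.

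**Figure D3:**
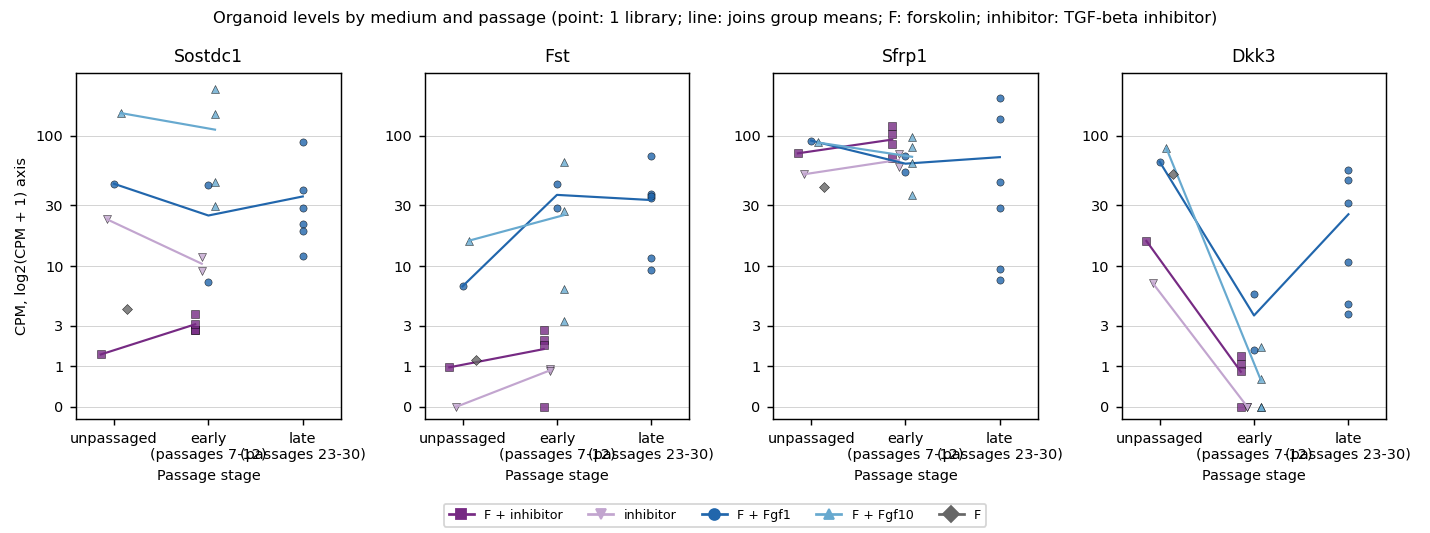
Levels of 4 antagonists in organoids by passage stage and medium, as CPM on a log2(CPM + 1) axis; points are libraries and lines join group means. Dkk3 is lower in early than in unpassaged organoids in each of the 4 media that have both stages. It averages 25.6 CPM in late organoids with forskolin and Fgf1 (31.5 to 55.7 CPM in replicates 1 to 3 and 3.90 to 10.8 CPM in replicates 4 to 6, not called against early organoids, adjusted p = 0.0947, edgeR). Sostdc1 and Fst lie lower with the inhibitor than with Fgf10 in unpassaged and early organoids.

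Other antagonists also fell in early against unpassaged organoids. Of 14 other Wnt antagonists 3 were tested and 2 fell: Igfbp4, an IGF-binding protein that can also hold back Wnt signalling, by -3.69 ± 0.37 (adjusted p = 3.08e-05), and Tpbg, a membrane glycoprotein, by -1.11 ± 0.29 (adjusted p = 0.023). Of 14 other BMP and activin antagonists 3 were tested, and Nbl1 (-1.62 ± 0.40, adjusted p = 0.0169) and Twsg1 (-0.76 ± 0.24, adjusted p = 0.04996) fell. Inhbb fell (-2.23 ± 0.47, adjusted p = 0.00728), and Bmp2 and Id2 rose (1.23 ± 0.35, adjusted p = 0.032, and 1.42 ± 0.45, adjusted p = 0.0472). Langerhans and T cell markers summed to 3.69 to 24.6 CPM in early organoids with forskolin and Fgf10, against 58.2 CPM in the unpassaged library, and to 7.03 to 8.62 CPM with forskolin and Fgf1, against 59.3 CPM. They summed to 2.72 to 26.3 CPM in early organoids with forskolin and the inhibitor, against 13.5 CPM in the unpassaged library, and to 14.5 to 15.7 CPM with the inhibitor without forskolin, against 14.8 CPM. Suprabasal markers summed to more in every early library than in the unpassaged one with forskolin and Fgf10 (16882 to 27211 against 4089 CPM), with forskolin and Fgf1 (7010 to 10200 against 3270 CPM) and with the inhibitor without forskolin (22092 to 37171 against 14228 CPM), and on both sides of it with forskolin and the inhibitor (2907 to 29628 against 7265 CPM). Fibroblast markers summed to 234 to 428 CPM in the 3 unpassaged libraries without the inhibitor and were 16.9 and 31.0 CPM in the 2 libraries that had it, while 9 or 10 of 12 dermal papilla markers were at 0. Their part in the fall of Dkk3 was not tested.

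Late against early organoids, both with forskolin and Fgf1, gave no member called, beside 6.72% of 9919 genes. Dkk3 ran from 3.90 to 55.7 CPM in late organoids (median 21.2), against 1.64 and 5.85 CPM in early organoids. Replicates 4 and 6 of the late organoids lay below the higher early library. The log2 difference was 2.59 ± 0.92 (adjusted p = 0.0947). It passed without late replicate 4 (2.82, adjusted p = 0.0413) and without late replicates 4 and 5 together (2.98, adjusted p = 0.0349). Genes called in this comparison numbered 667, and 51 and 84 without early replicate 2 or 1 and 1091 without late replicate 4. Sostdc1 (0.30 ± 0.72, adjusted p = 0.843), Fst (-0.16 ± 0.76, adjusted p = 0.924) and Sfrp1 (-0.05 ± 0.72, adjusted p = 0.976) did not pass, and their groups overlapped. The pathway genes that rose in late organoids were Nbl1 (2.81 ± 0.61, adjusted p = 0.0117), Bmp2 (2.39 ± 0.52, adjusted p = 0.0117), the Wnt receptor Ror2 (3.84 ± 1.05, adjusted p = 0.044), Edar, the ectodysplasin receptor (4.77 ± 1.27, adjusted p = 0.031), and Id2 (3.14 ± 0.64, adjusted p = 0.00897), and none fell.

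The late libraries differed among themselves. Dkk3 had 55.7, 31.5 and 47.0 CPM in replicates 1 to 3 and 3.90, 10.8 and 4.76 CPM in replicates 4 to 6, and Sfrp1 had 192, 133 and 45.1 CPM in replicates 1 to 3 and 28.6, 7.74 and 9.52 CPM in replicates 4 to 6. For both genes the first 3 lay above the last 3. No label gives this split, which was seen in these values, and the share of all genes that follow it was not counted. Suprabasal markers summed to 97.1, 158 and 908 CPM in replicates 1 to 3 and to 22252, 4037 and 13735 CPM in replicates 4 to 6, and bulge markers to 4461, 3512 and 1690 CPM and to 770, 993 and 330 CPM. As above, the bulge sum was not read as a measure of bulge cells. Replicates 1 and 2 share a gene list, as do 4 and 5, and 3 and 6 each have their own. Fst did not follow this order, with 34.1, 36.4, 35.5, 11.7, 9.28 and 70.5 CPM in replicates 1 to 6, and neither did Sostdc1, with 28.8, 89.7, 12.2, 39.0, 21.7 and 19.0 CPM. The part that these markers play in the levels of Dkk3 and Sfrp1 was not tested.

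**Figure D4:**
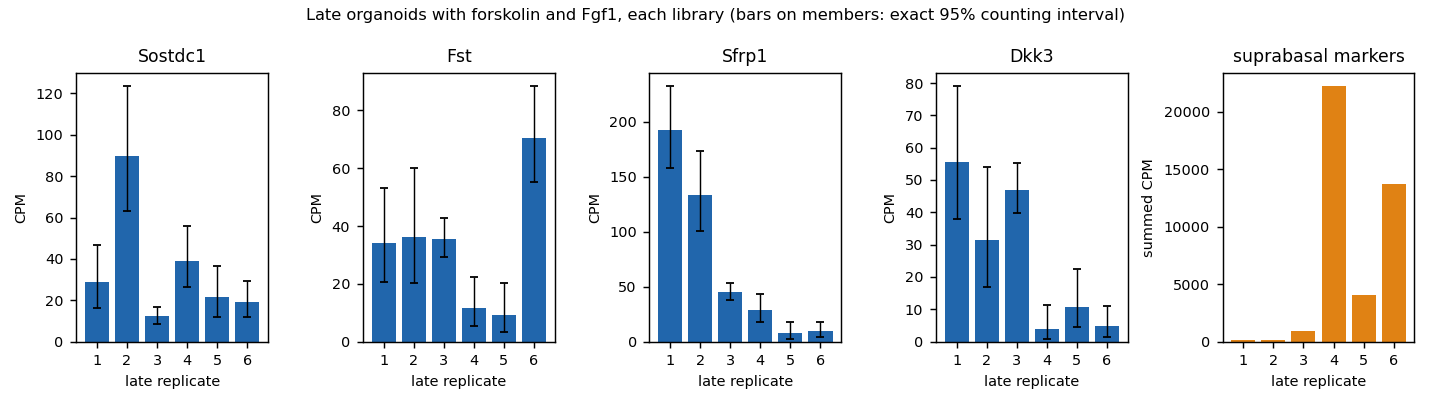
CPM of 4 antagonists and the summed CPM of the suprabasal markers in each late library with forskolin and Fgf1; error bars on the members are exact 95% counting intervals. Dkk3 and Sfrp1 are higher in replicates 1 to 3, where suprabasal markers sum to 97.1 to 908 CPM, than in replicates 4 to 6, where they sum to 4037 to 22252 CPM.

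Over the 13 groups, the mean of Sostdc1 was highest in epidermis (275 ± 94.8 CPM), then in unpassaged (148) and early (112 ± 91.8) organoids with forskolin and Fgf10, and lowest in unpassaged organoids with forskolin and the inhibitor (1.44). Epidermis stood apart from the next group, and each following pair down to unpassaged organoids with the inhibitor without forskolin (23.4) overlapped. The Dkk3 means ran from 81.4 CPM in unpassaged organoids with forskolin and Fgf10 to 0 in early organoids with the inhibitor without forskolin. Those of Fst ran from 36.04 ± 10.3 CPM in early organoids with forskolin and Fgf1 (n = 2) to 0 in unpassaged organoids with the inhibitor without forskolin, with the 4 highest groups overlapping their neighbours. Those of Sfrp1 ran from 109 ± 15.2 CPM in epidermis to 2.64 ± 1.08 CPM in anagen follicles. With CPM scaled by TMM, Sfrp1 in epidermis (84.8) lay below early organoids with forskolin and the inhibitor (89.1) and unpassaged organoids with forskolin and Fgf1 (88.6) or Fgf10 (85.7). On the unscaled CPM the 23 organoid libraries had a median of 70.3 CPM. Wif1 had 49 counts in all 32 libraries and was at 0 in 18, and its highest mean was the 5.51 CPM of the 1 unpassaged library with forskolin alone, which overlapped anagen follicles (3.59 ± 2.92 CPM).

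The genes whose log2(CPM + 1) followed each member most closely over the 32 libraries, among 7440 genes with a mean of at least 10 CPM, were Lgals9, Tgfbi and Gas1 for Sostdc1 (Pearson r = 0.825, 0.804 and 0.795) and Emb, Col7a1 and Lgals9 for Fst (0.815, 0.782 and 0.775). They were Lgmn, Osbpl3 and Syap1 for Dkk3 (0.799, 0.772 and 0.763) and Mb21d1, Cyb5r1 and Krt5 for Sfrp1 (0.844, 0.843 and 0.837). For Wif1 they were Stk17b, Prss53 and Krt75 (0.707, 0.700 and 0.684). Between members the highest r was that of Sostdc1 and Fst, 0.641. The libraries share batches and groups, and these values are a description.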

How the data were processed

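RNA of cells sorted into Trizol was made into CEL-seq2 libraries and read in pairs of 75 bp on a NextSeq500, per the labels' protocols. The submitters' processing notes name BWA 0.6.2-r126 and mm10; how reads were counted, and with which annotation or identifiers, is not given in the sources used. The deposited values are raw whole-number counts per gene name, 1 file per library, with 0 values that were not whole. Spike-in rows (at most 0.00218% of a library) were left out of totals, and genes absent from a file count as 0. CPM were computed from these counts.

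Comparisons used edgeR 4.0.16 (quasi-likelihood test, TMM scaling, filterByExpr with a minimum count of 10 and a minimum total of 15) in R 4.3.3, with p-values adjusted by Benjamini-Hochberg over all genes tested and a threshold of 0.05. Alternatives were RLE and upper quartile scaling, no filter, DESeq2 1.42.0, the compared groups alone, the replicate number as a block, 1 set of identical gene lists, and leaving out each library. The steps were tested on simulated data. The SE of a log2 difference is its absolute value over the square root of the test's F statistic, and is unreliable for differences near 0. Counting intervals are exact (Clopper-Pearson, 95%), the floor is 3 counts, and both cover counting error only. No label ties a replicate to its own animal or culture: p-values reflect only how these libraries vary, and that spread may be technical. The members and gene lists were chosen with earlier results of these data known. The genes named beside the members are up to 3 per list and comparison with the largest change among those called, and the 3 most like each member. Gene positions come from GENCODE M21. No sequences are printed.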

Additional observations from a re-analysis of the deposited data

Results flagged for a closer look

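In groups of 4 to 10 libraries, 4 of the 15 sets of values tested held a library far from the others. Sostdc1 in late replicate 2, at 89.7 CPM, stood above the other late libraries, the next of which had 39.0 CPM; chance picks out about 1 in 20 such groups. The other 3 are single Wif1 counts in groups otherwise at 0, where any lone count is picked out: 0.501 CPM in early replicate 3 with forskolin and Fgf10, 0.616 CPM in early replicate 4 with forskolin and the inhibitor, and 1.80 CPM in late replicate 1. Wif1 also had 5.51 CPM (9 counts) in the unpassaged library with forskolin alone, which enters no comparison.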

How the results depend on the processing

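Of 897 recomputed log2 differences of the members, 36 changed direction, 37 no longer passed the threshold and 9 newly passed it. The differences of Sostdc1 for epidermis against anagen follicles, anagen against mixed follicles, late organoids against epidermis and anagen follicles, early organoids against epidermis, and forskolin with the inhibitor against forskolin with Fgf10, and that of Dkk3 for early against unpassaged organoids, kept their call under every alternative run. The causes of the changes below were not tested.

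With the compared groups alone, genes called numbered 1376 for late organoids against epidermis, 1 for late against early organoids, 43 for Fgf1 against Fgf10, 123 for forskolin with the inhibitor against forskolin with Fgf10, and 5 for forskolin on the inhibitor; members called were 1 for late organoids against epidermis and 1 for the inhibitor. With DESeq2, genes called in these last 4 comparisons numbered 1137, 15, 138 and 24, and 15 for the difference in passaging between inhibitor and FGF media. With no filter on low counts they numbered 3 for Fgf1 against Fgf10, 115 for the inhibitor, 19 for forskolin on the inhibitor, 1663 for early against unpassaged organoids (with 2 members, Fst being the second) and 80 for the difference in passaging. Among libraries with identical gene lists they numbered 99 for the inhibitor, 15 for forskolin on the inhibitor and 433 for early against unpassaged organoids, where Sfrp1 turned to -0.99. Upper quartile scaling left 1 member called for late organoids against epidermis and 1 for the inhibitor. Sfrp1 for late against early organoids turned to 0.01 with RLE or upper quartile scaling and 0.03 with DESeq2.

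Same-numbered libraries did not deviate together in every pair (Pearson r from -0.148 to 0.408), and no label pairs them. These values cannot settle whether the numbers pair the samples, and the main fits treat the samples as unpaired. With the replicate block, 1 member was called for late against early organoids (Dkk3, 3.37) and 1 for the inhibitor (Fst lost, adjusted p = 0.0603), 33 genes were called for forskolin on the inhibitor, and Sfrp1 turned to 0.15 for late organoids against epidermis and to 0.53 against early organoids, and Fst to -0.13 for forskolin on the inhibitor. For early against unpassaged organoids, a block added after seeing the data rests on replicate number 1, the only number both stages have: 87 genes were called, Dkk3 kept its call (adjusted p = 0.00267) and Sfrp1 turned to -0.10, and within the inhibitor media Dkk3 was not called (adjusted p = 0.182).

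Left out together, a choice made after seeing the data, late replicates 4 and 5 gave 1051 genes and 1 member for late against early organoids, with Fst at 0.22 and Sfrp1 at 0.37; late replicates 1 and 2 gave Sostdc1 at -0.19. Leaving out each library in turn gave 0 to 2 members for epidermis against mixed follicles, 398 to 662 genes and 1 to 2 members for anagen against mixed follicles, and 1296 to 2549 genes and 1 to 2 members for late organoids against epidermis, with Fst at -0.01 to 0.84. It gave 1 to 3 members for early organoids against epidermis, and 51 to 1091 genes and 0 to 1 members for late against early organoids, with Sostdc1 at -0.49 to 1.97, Fst at -0.66 to 0.15 and Sfrp1 at -0.71 to 0.17. Genes called ran from 0 to 6 for Fgf1 against Fgf10, 17 to 47 (1 to 2 members, Dkk3 at -0.20 to 1.52) for the inhibitor, 0 to 16 for forskolin on the inhibitor and 184 to 1257 for early against unpassaged organoids (Sfrp1 at -0.11 to 0.24). For the difference in passaging they ran from 0 to 6, with Sostdc1 at -0.41 to 1.79, Dkk3 at -1.24 to 1.54 and Fst at -0.82 to 2.08, and within the inhibitor media Sostdc1 ran from -0.96 to 1.24. CPM scaled by TMM gave 54.5 CPM for Sostdc1 and 4.17 CPM for Wif1 in mixed follicles, and 84.8 CPM for Sfrp1 in epidermis. Depth limits Wif1 throughout, and Fst and Sostdc1 in anagen follicles.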
